A study of Homo sapiens with 2 samples.

Results

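Of 64784 H3K27ac peaks on chromosomes 1 to 22 and X, 46044 lay more than 2.5 kb from both ends of every protein-coding gene, and 13974 of these distal peaks shared no base with any H3K4me1 peak. The members described here are these 13974 regions, 30.3% of the distal H3K27ac peaks (95% exact Clopper-Pearson interval 29.9 to 30.8%). They were chosen by measured values, the peak calls of both marks, so the absence of H3K4me1 at them is the rule and not a result. The background for the rule is the same 30.3%, and nothing is read from it. Gene ends came from the RefSeq annotation of GRCh38.p14, with 19821 protein-coding genes.

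The data were CUT&Tag peak lists from C4-2B cells, a bone-metastatic derivative of the LNCaP prostate cancer line, made resistant to the antiandrogen drug enzalutamide by culture with the drug for at least 6 months. CUT&Tag places a transposase at an antibody-bound histone mark and sequences the fragments it releases. There was 1 library for each mark, each from 100000 cells of the resistant line, and no parental, input or untargeted control library was analysed here, so no value below has a replicate and no test was run. The sources do not say whether the resistant line is 1 clone.

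The labelled cell type was checked at its markers. All 8 prostate luminal genes reported here (KLK2, KLK3, HOXB13, TMPRSS2, FOXA1, KRT8, KRT18 and FOLH1) had an H3K27ac peak within 2.5 kb of an end, with a median of 135.5 fragments at the highest summit and a lowest value of 74. Of 9 leukocyte, endothelial and fibroblast genes (PTPRC, CD3E, LYZ, PECAM1, VWF, CDH5, COL1A1, COL3A1 and PDGFRB), 4 had such a peak, none above 24 fragments, and LYZ, PECAM1, VWF, COL3A1 and PDGFRB had none. H3K4me1 separated the lists less: all 8 luminal genes had a peak, among them TMPRSS2 with 59 fragments and FOLH1 with 33, and of the other 9 genes CD3E had 59, COL1A1 40, CDH5 22 and LYZ 9.

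Histone H3 acetylated at lysine 27 is laid down by the acetyltransferases p300 and CBP and marks active promoters and active enhancers. H3 monomethylated at lysine 4, written mainly by KMT2C and KMT2D, marks enhancers whether active or primed, and at active promoters it typically sits on the nucleosomes to either side of a centre that carries the trimethylated form. A distal peak with acetylation alone is therefore not the textbook pair of marks of an enhancer. Transfer RNA genes and the U6 small nuclear RNA genes are read by RNA polymerase III, and the U1, U2, U4 and U5 genes by RNA polymerase II.

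The 6 sequences below show the kinds of listed start that some deep members covered: starts that fall inside, not at the end of, a protein-coding gene, and starts of noncoding genes. Many deep members covered no listed start. Each is the RefSeq promoter window of GRCh38.p14, from 250 bases before to 50 after a listed start, printed 5′ to 3′ on the strand of the gene. Capitals mark the GC box (GGGCGG or CCGCCC) and the TATAAA box (TATAAA or TTTATA), searched on both strands with overlapping matches counted. Of 34961 listed promoters of the same length, 45.0% held a GC box and 11.5% a TATAAA box. A match is a description of letters only. The windows are VDAC1 at chr5:134004719-134005018 on the minus strand, HDGF at chr1:156751244-156751543 on the minus strand, UBA1 at chrX:47193579-47193878 on the plus strand, LOC401261 at chr6:42783246-42783545 on the plus strand, HCG27 at chr6:31197510-31197809 on the plus strand and SNHG32 at chr6:31834666-31834965 on the plus strand.
VDAC1: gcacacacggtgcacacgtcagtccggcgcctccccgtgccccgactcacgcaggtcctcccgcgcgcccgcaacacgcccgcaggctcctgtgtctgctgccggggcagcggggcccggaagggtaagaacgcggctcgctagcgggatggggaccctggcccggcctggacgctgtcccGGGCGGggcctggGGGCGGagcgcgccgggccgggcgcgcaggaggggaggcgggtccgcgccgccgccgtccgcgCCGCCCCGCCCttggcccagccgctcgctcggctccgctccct
HDGF: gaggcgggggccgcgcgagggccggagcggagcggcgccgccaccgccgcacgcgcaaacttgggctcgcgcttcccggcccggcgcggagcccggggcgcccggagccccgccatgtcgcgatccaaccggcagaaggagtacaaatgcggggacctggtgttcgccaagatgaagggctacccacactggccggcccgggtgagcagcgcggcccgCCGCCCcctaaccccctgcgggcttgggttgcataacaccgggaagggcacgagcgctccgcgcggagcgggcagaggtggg
UBA1: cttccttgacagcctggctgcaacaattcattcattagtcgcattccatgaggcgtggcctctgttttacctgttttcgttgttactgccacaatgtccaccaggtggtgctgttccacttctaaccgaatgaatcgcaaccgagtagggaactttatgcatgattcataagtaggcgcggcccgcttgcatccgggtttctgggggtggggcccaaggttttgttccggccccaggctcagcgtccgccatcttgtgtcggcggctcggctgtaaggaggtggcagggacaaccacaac
LOC401261: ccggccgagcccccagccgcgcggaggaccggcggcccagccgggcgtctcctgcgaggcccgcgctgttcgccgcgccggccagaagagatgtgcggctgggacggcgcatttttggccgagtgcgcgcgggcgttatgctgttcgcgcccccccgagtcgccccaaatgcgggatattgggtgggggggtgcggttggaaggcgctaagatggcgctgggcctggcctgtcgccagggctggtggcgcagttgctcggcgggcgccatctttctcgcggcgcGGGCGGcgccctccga
HCG27: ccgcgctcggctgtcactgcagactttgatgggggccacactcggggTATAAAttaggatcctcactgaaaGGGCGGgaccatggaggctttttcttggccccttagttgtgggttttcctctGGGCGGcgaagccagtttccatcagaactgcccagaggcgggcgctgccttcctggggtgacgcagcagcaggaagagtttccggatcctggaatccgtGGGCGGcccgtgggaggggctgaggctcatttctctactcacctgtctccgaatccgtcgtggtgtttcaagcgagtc
SNHG32: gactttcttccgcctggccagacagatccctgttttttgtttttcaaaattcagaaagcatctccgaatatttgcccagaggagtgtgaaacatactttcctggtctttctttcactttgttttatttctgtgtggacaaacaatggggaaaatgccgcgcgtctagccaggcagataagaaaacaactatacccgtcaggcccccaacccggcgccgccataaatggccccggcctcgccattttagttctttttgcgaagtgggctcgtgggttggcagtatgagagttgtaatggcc
The VDAC1 window held 45 CG dinucleotides and 4 GC boxes, that of LOC401261 44 and 1, and that of HDGF 42 and 1. Those of HCG27 (18 CG, 3 GC boxes), UBA1 (16 CG, no GC box) and SNHG32 (13 CG, no GC box) were poorer in CG. Only the HCG27 window of these 6 held a TATAAA box.

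Most members were shallow. The summit pileup, the number of fragments stacked at the highest point of a peak, was recovered from the deposited fold enrichment and p-value, and its median was 6 fragments in members (quartiles 5 and 8, range 4 to 345). The median width was 174 bp (quartiles 149 and 219), the median fold over local background 4.15 and the median −log10 q 3.02; fold and q are the values the authors deposited for each peak. Distal H3K27ac peaks that shared H3K4me1 had a median pileup of 14 fragments, a median width of 253 bp, a median fold of 6.71 and a median −log10 q of 9.06. Fewer than 10 fragments stood at the summit of 85.6% of members and of 31.7% of distal peaks with H3K4me1.

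The share of distal peaks without H3K4me1 fell step by step with depth. It was 60.6% at 4 to 7 fragments (9818 of 16195), 28.2% at 8 to 12 (3240 of 11497), 6.25% at 13 to 34 (777 of 12429) and 2.35% at 35 or more (139 of 5923), with 95% intervals of 59.9 to 61.4%, 27.4 to 29.0%, 5.83 to 6.69% and 1.98 to 2.77%. Thus 70.3% of members came from the shallowest of these depth groups and 0.995% from the deepest. These shares describe this pair of peak lists; the number of reads behind each list is not given in the sources used here, and its part in them was not tested. All the members together covered 2.82 Mb, against 10.5 Mb for distal peaks with H3K4me1. The depth groups match pileup only. At 35 or more fragments the median local background was 10.2 in members and 4.585 in distal peaks with H3K4me1. Their median widths were 308 and 474 bp. At 13 to 34 fragments the backgrounds were 1.92 and 1.31, and the widths 226 and 288 bp.

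**Figure D1:**
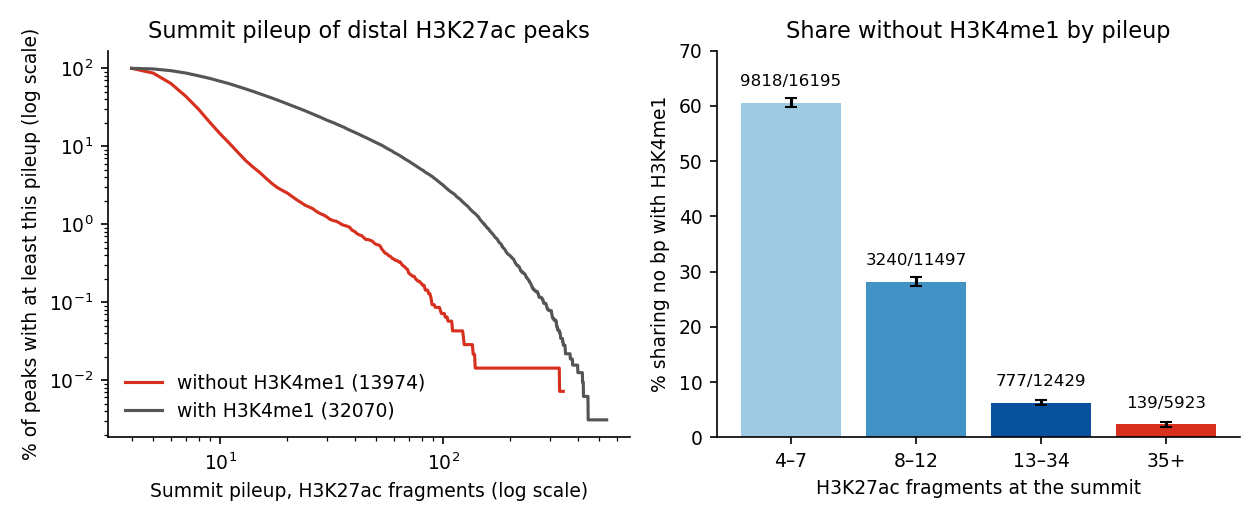
Left, percentage of distal H3K27ac peaks (y, log scale) whose summit pileup reached at least the number of fragments on x (log scale), for the 13974 without and the 32070 with H3K4me1. Right, percentage of distal peaks sharing no base with H3K4me1 in 4 pileup groups, with 95% exact Clopper-Pearson bars and counts, falling from 60.6% to 2.35%.

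The nearest H3K4me1 peak was usually several kilobases away. The median gap from edge to edge was 7841.5 bp (quartiles 3251.75 and 15974.5), longer than the 3329 bp of the 3145 gene-end H3K27ac peaks without H3K4me1. Those gene-end peaks were deeper, with a median of 9 fragments against 6 in members, and the comparison was not matched for depth. An H3K4me1 peak lay within 500 bp of 8.22% of members, within 1 kb of 12.96%, within 2 kb of 18.96%, within 10 kb of 58.8% and within 50 kb of 96.6%. The H3K4me1 list used holds 139511 peaks.

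The gap depended on depth. Its median was 8967 bp at 4 to 7 fragments, 6256 bp at 8 to 12, 1926 bp at 13 to 34 and 585 bp at 35 or more. Within 2 kb of H3K4me1 were 14.4%, 22.3%, 50.7% and 87.8% of members of these groups in turn. The deepest members were thus neighbours of H3K4me1 and the shallow ones were mostly not.

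Some deep members were also flanked. H3K4me1 peaks lay within 2 kb on both sides of 65 of the 139 members of 35 or more fragments (46.8%, 95% interval 38.3 to 55.4%), against 24.4% of equally deep distal peaks that shared an H3K4me1 peak (23.3 to 25.5%), for which a peak under the H3K27ac peak did not count as a flank. In the 3 shallower groups the order was the other way: 0.998% against 8.88% at 4 to 7 fragments, 2.32% against 11.2% at 8 to 12, and 13.6% (11.3 to 16.3%) against 17.3% (16.6 to 18.0%) at 13 to 34. The set of 139 depends on the rule: with an H3K4me1 peak within 500 bp counted as shared it held 84 members, within 2 kb 17, with a 50% cover required 622 and with a gene-end window of 1 kb 220. For the 65 flanked members the median gaps were 630 bp on the side of lower coordinates and 585 bp on the other, with 48 and 54 H3K4me1 fragments at the median summits. The median interval free of H3K4me1 around them was 1756 bp. The coverage curve of H3K4me1 peaks around members of 35 or more fragments rose to 23.7% of members at 850 bp from the centre, that of members of 13 to 34 fragments to 9.14% at 550 bp, and those of the shallower groups stayed at or below 3.02% within 5 kb. At the same 2 positions the curves of distal peaks with H3K4me1 stood at 17.0% and 17.8%. In those curves the H3K4me1 peaks under the H3K27ac peak also counted.

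**Figure D2:**
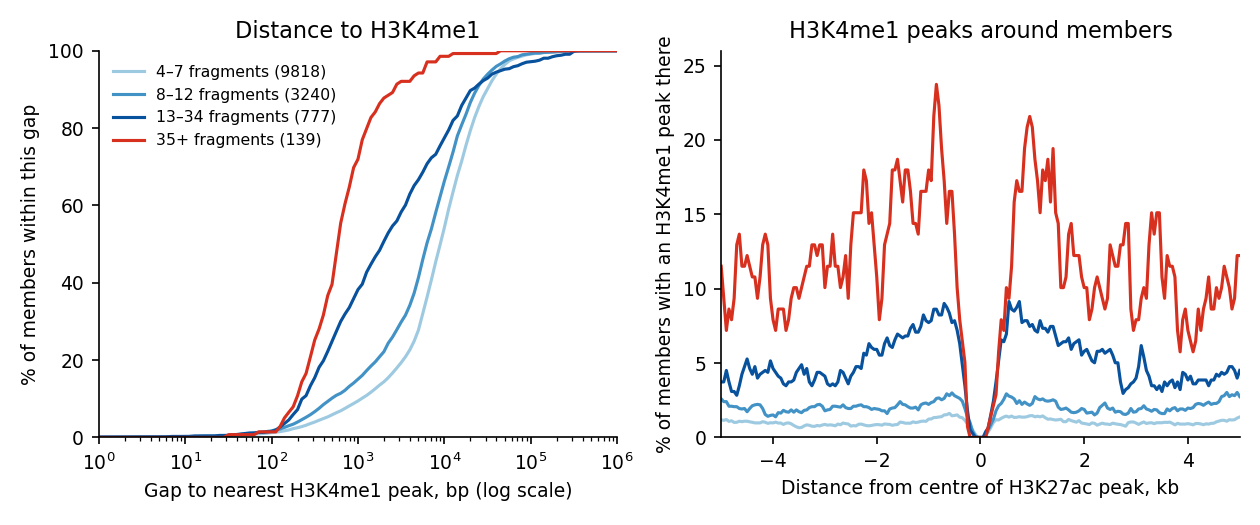
Left, cumulative percentage of members (y) by gap to the nearest H3K4me1 peak (x, bp, log scale) in 4 pileup groups, with medians from 8967 bp down to 585 bp. Right, percentage of members (y) with an H3K4me1 peak at each distance from the centre of the H3K27ac peak (x, kb); the trough at 0 is set by the rule, and the shoulders of the deepest group reach 23.7% at 850 bp.

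The peaks nearest to the borders of the rule were these. Of peaks with at least 10 fragments, the members nearest to the 2.5 kb limit lay 2501 to 2532 bp from a gene end, among them a peak of 52 fragments at BCAR1 and one of 47 at PPP4R1, and the first peaks left out lay 2491 to 2498 bp away, among them one of 52 fragments at TNRC18. Members nearest to H3K4me1 had gaps of 1, 2, 3, 4 and 7 bp, with 14, 10, 10, 10 and 13 fragments. The first excluded ones shared 3, 9, 9, 10 and 13 bp with an H3K4me1 peak, with 14, 10, 11, 13 and 13 fragments.

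The 20 deepest members held 85 to 345 fragments. The first and second sat at NEAT1, the long noncoding RNA that scaffolds nuclear paraspeckles. One at chr11:65422060-65422448 had 345 fragments (95% exact Poisson interval 310 to 383, counting error only) and one at chr11:65422720-65423569, over the lower-coordinate end of the gene, had 331 (296 to 369). Their local background was 124 and 123 fragments, so their folds were only 2.77 and 2.67. The nearest H3K4me1 peak, of 127 fragments, ended 615 and 1275 bp away.

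At the other end of NEAT1, members of 26 and 21 fragments followed, and no H3K4me1 peak lay within 1 kb of either end of the gene. Farther along chromosome 11, a member of 135 fragments (113 to 160) at chr11:65500474-65500748 lay 1162 bp from an end of TALAM1, the antisense partner of MALAT1, and 2563 bp from H3K4me1. The peaks at the ends of MALAT1 itself, which reach 400 H3K27ac and 146 H3K4me1 fragments, are not members.

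A member of 138 fragments (116 to 163) lay inside ATN1, the atrophin 1 gene, at chr12:6927445-6928036, over an end of the uncharacterised LOC124902868 and 1225 bp from H3K4me1. Near BCL9L, which encodes a coactivator of beta-catenin, chr11:118928587-118929128 had 122 fragments and chr11:118929562-118929820 had 109, with H3K4me1 peaks of 140 and 92 fragments beside them. LOC124905135, a predicted coding gene on chromosome 22 whose span covers the let-7 host gene MIRLET7BHG, held members of 123, 101 and 87 fragments. At BCL9L and in LOC124905135 another H3K27ac peak lay 171 to 1339 bp from each of these members.

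VDAC1, the main channel of the outer mitochondrial membrane, held the widest member, chr5:134003973-134005400, 1428 bp with 109 fragments (89.5 to 131). It covered listed internal starts of VDAC1, one of them in the window printed above, and H3K4me1 peaks of 43 and 51 fragments flanked it at 605 and 209 bp. LARP1, a regulator of the translation of ribosomal protein mRNAs, held members of 104 and 88 fragments on chromosome 5, of which the second covered a listed start. HDGF, a growth factor of the nucleus, had 88 fragments over the start printed above, with H3K4me1 at 498 and 405 bp. ZFP36L1, an mRNA decay factor, had 96 fragments over a listed start, with H3K4me1 peaks of only 15 and 18 fragments at 371 and 808 bp. At each of these 4 genes the acetylated region lay between H3K4me1 peaks.

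The member in NFIX (chr19:13013213-13013538) had 97 fragments with H3K4me1 peaks of 93 and 98 fragments on its sides. GATA2, a zinc finger transcription factor, held members of 87 fragments at chr3:128489954-128490357 and 65 fragments at chr3:128489180-128489568, both within 1 kb of the start of GATA2-AS1. The member at SPEN-AS1, antisense to the corepressor gene SPEN, had 91 fragments and lay 31 bp from a weak H3K4me1 peak of 8 fragments. RERE, which encodes an atrophin family corepressor, had 85 fragments 834 bp from H3K4me1. The H3K4me1 peaks beside the NFIX member were thus deeper than those beside SPEN-AS1, of 8 and 22 fragments.

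A few of the 20 stood away from H3K4me1. In BICRAL, a gene of a BAF complex subunit, chr6:42782622-42783912 was 1291 bp wide with 88 fragments (70.6 to 108) over a local background of 5.72, a fold of 13.2. It covered the LOC401261 start printed above and lay 5887 bp from an H3K4me1 peak of 6 fragments. UBE2L3, a ubiquitin-conjugating enzyme, held 85 fragments at chr22:21567639-21568448, a fold of 14.9, with the nearest H3K4me1 4518 bp away. These folds exceeded the 2.77 and 2.67 at NEAT1, where the local background was higher.

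**Figure D3:**
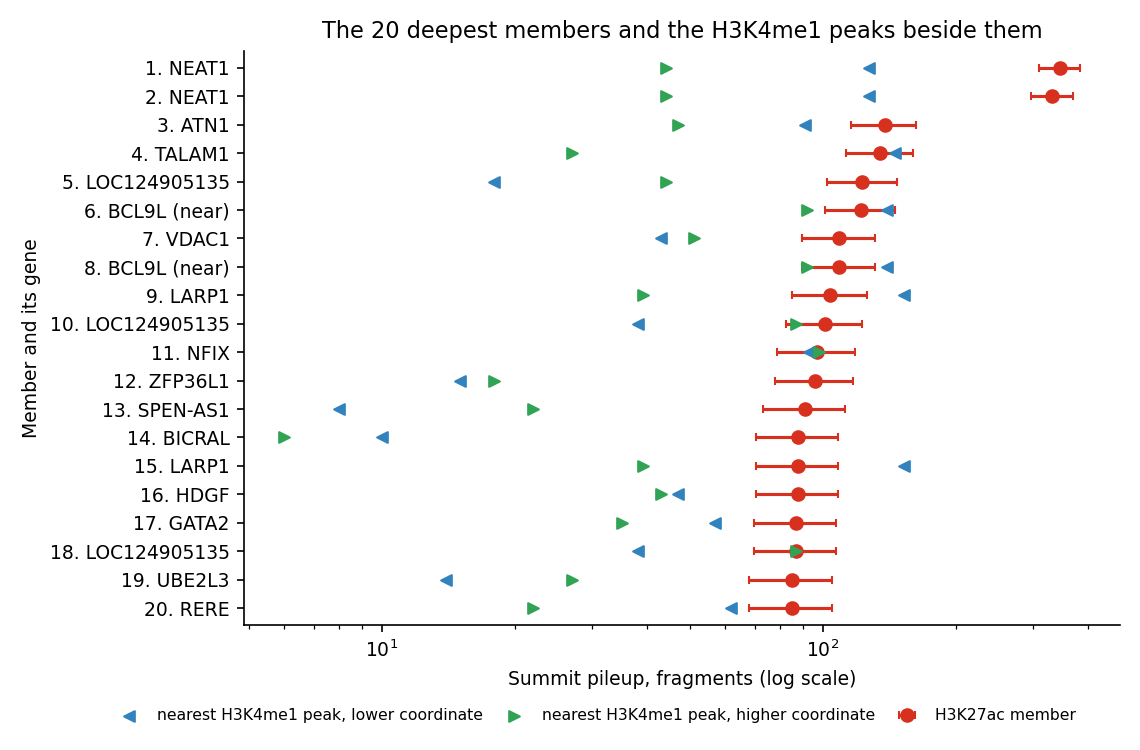
Summit pileup (x, fragments, log scale) of the 20 deepest members, in order, labelled by the gene that holds them or, outside coding genes, by a nearby noncoding gene or the nearest coding gene; bars are 95% exact Poisson intervals. Triangles give the nearest H3K4me1 peak on each side, whose scale belongs to another library; they range from 6 fragments beside the BICRAL member to 153 beside LARP1.

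Among all 139 members of 35 or more fragments, 122 had H3K4me1 within 2 kb and 17 did not. The farthest was a region in POM121C, a nuclear pore gene with near-identical copies on chromosome 7 where the placing of reads is uncertain, at chr7:75442415-75442764 with 52 fragments and a gap of 43491 bp. Next came members in GPI (38 fragments, 12157 bp), a glycolytic enzyme, in TTC34 (41 fragments, 8675 bp), at chr3:194943284-194943648 (36 fragments, 7950 bp) and at the small nuclear RNA gene RNVU1-18 (48 fragments, 6176 bp). At the near end, besides SPEN-AS1, stood B4GALT1 (40 fragments, 68 bp), APPL2 (40 fragments, 114 bp), RXRA (56 fragments, 133 bp) and a region of 38 fragments near the noncoding gene RENO1 (124 bp).

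Starts inside genes were a frequent site of deep members. Counting listed protein-coding starts, with chromosome 8 left out because the promoter table used here has no entry for it, 1.68% of members (227 of 13495) and 4.43% of distal peaks with H3K4me1 lay within 1 kb of one, with 3.59% for all distal peaks as background. By depth the shares of members were 0.886%, 1.54%, 6.12% and 36.3%, against 1.02%, 1.61%, 3.22% and 14.5% of distal peaks with H3K4me1. At 13 to 34 fragments the intervals were 4.51 to 8.08% and 2.90 to 3.56%, and at 35 or more 28.2 to 45.0% (49 of 135) and 13.6 to 15.5%. Members exceeded H3K4me1-bearing peaks in these 2 groups, while in the 2 shallower ones the intervals overlapped.

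Further deep members lay over or near internal starts of genes of several kinds, chosen for display after their values were seen. UBA1, the ubiquitin-activating enzyme, had 79 fragments at chrX:47193721-47194384 with a gap of 2196 bp to H3K4me1. CANX, an endoplasmic reticulum chaperone, had 82 fragments 780 bp from a start, and AMD1, an enzyme of polyamine synthesis, 72 fragments 493 bp from one. PRRC2B held members of 74 and 69 fragments, RNF44 of 71 and 69, and GSE1 of 78 and 66 around single starts. MATR3 (68 fragments), HMGB1 (67), G3BP2 (64), SLC39A10 (59) and the epithelial ETS factor EHF (58) followed. Neighbouring H3K27ac peaks were common: another H3K27ac peak stood within 1 kb of 114 of the 139 deepest members (82.0%, 74.6 to 88.0%), against 42.3% of equally deep distal peaks with H3K4me1 (41.0 to 43.6%). At 4 to 7 fragments the shares were 12.97% and 18.5%.

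The letters at starts with a member of any depth were compared with starts that carried no member. The starts were not split by the depth of their peaks. Of 3958 listed protein-coding starts more than 2.5 kb from any coding gene end, the windows of 77 shared a base with a member, those of 1134 with a distal peak that shared H3K4me1 and those of 2747 with neither. The median number of CG dinucleotides in the window was 16, 25 and 5, and a GC box was present in 55.8% (44.1 to 67.2%), 66.8% (63.9 to 69.5%) and 24.9% (23.3 to 26.6%). Windows of long noncoding RNA starts followed the same order, with medians of 10, 17 and 3 CG and GC boxes in 35.8%, 48.8% and 12.2%, for 106, 823 and 8868 starts. The median CG count of starts with a member lay between those of the other groups in both kinds of gene; for coding starts the GC box intervals of members and of peaks with H3K4me1 overlapped. A TATAAA box stood in 5.19%, 5.20% and 14.9% of the coding windows and in 7.55%, 9.11% and 19.1% of the noncoding ones, in the same order of groups.

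**Figure D4:**
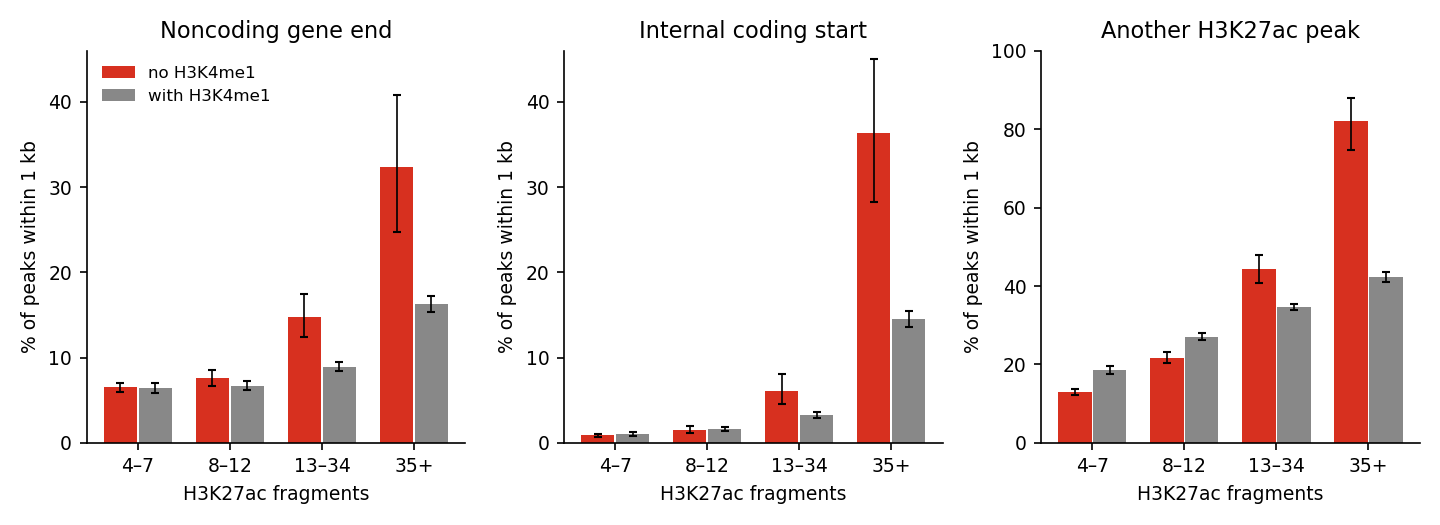
Percentage of distal H3K27ac peaks (y) within 1 kb of a noncoding gene end, of a listed protein-coding start (chromosome 8 left out) and of another H3K27ac peak, by pileup group (x), for members and for peaks with H3K4me1; bars are 95% exact Clopper-Pearson intervals. Members exceed the other peaks in the 2 deeper groups of each panel, for coding starts with 36.3% against 14.5% at 35 or more fragments.

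An end of a noncoding gene, which the rule did not use, lay within 1 kb of 1044 members (7.47%, 7.04 to 7.92%). The background over all distal peaks was 8.67%, and distal peaks with H3K4me1 stood at 9.20% (8.88 to 9.52%), so the members as a whole were not richer in noncoding ends. Within depth groups the picture differed. The shares of members were 6.50%, 7.59%, 14.8% and 32.4% (45 of 139) with rising depth, and those of distal peaks with H3K4me1 6.43%, 6.72%, 8.94% and 16.3%. Intervals of the pair were apart at 13 to 34 fragments (12.4 to 17.5% and 8.43 to 9.48%) and at 35 or more (24.7 to 40.8% and 15.3 to 17.3%). Members and distal peaks with H3K4me1 were matched here by pileup group only, not by local background or width. Of the 139 deepest members, 84 lay within 1 kb of a noncoding end or a listed coding start, 10 of them near both, and of the remaining 55, 40 lay inside a protein-coding gene. The 139 include 4 on chromosome 8, where only noncoding ends could be counted. This combined count was not made for distal peaks with H3K4me1, so it has no background.

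Of the 1044 members near a noncoding end, 638 were near one of a long noncoding RNA (61.1%, 58.1 to 64.1%), a lower share than the 70.1% (68.7 to 71.5%) of all distal peaks near a noncoding end. Ends of 600 of 17923 such genes had a member within 1 kb, and for 418 of the 600 (69.7%) no H3K4me1 peak lay within 1 kb of either end. Over all 17923 genes that share was 67.0%, but only 4771 of them had an H3K27ac peak there, as all 600 do. The share among the 4771 was not computed, so the 69.7% has no like background. Besides NEAT1, LOC124902868, NFIX-AS1, SPEN-AS1, LOC401261 and GATA2-AS1, the deepest were LOC124907875 on chromosome 2 with 82 fragments and a fold of 16.4, PRR34 and PRR34-AS1 on chromosome 22 with 80 and 75, and LOC124901143 in RNF44 with 71. NFIX-AS1, SPEN-AS1 and GATA2-AS1 are antisense partners of coding genes, and since peaks carry no strand they cannot be assigned to one gene of a pair.

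Noncoding genes of 3 lists were looked at next. Of 34 long noncoding RNAs linked to prostate cancer, 18 had an H3K27ac peak and 20 an H3K4me1 peak within 1 kb of an end, and 5 had a member. That is 27.8% of the 18 (9.70 to 53.5%), beside 12.6% of all 4771 long noncoding RNA genes with an H3K27ac peak there. H3K27ac peaks within 2.5 kb of a coding gene end cannot be members by the rule. The 5 were NEAT1, SCHLAP1 (23 fragments at chr2:180692904-180693122, 341 bp from H3K4me1), DRAIC (19 fragments, 211 bp), H19 (5 fragments, 7417 bp) and CCAT1 (4 fragments, 6592 bp). At SCHLAP1, an antagonist of SWI/SNF in aggressive prostate cancer, and at DRAIC the deepest H3K27ac peaks within 1 kb of an end, of 49 and 42 fragments, are not members. PCA3 and PCGEM1 had no peak of either mark there.

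Of 30 widely expressed noncoding RNA and small nucleolar RNA host genes (TUG1 among them, which RefSeq lists as protein-coding), 26 had an H3K27ac peak and 1 had a member, SNHG32. Its members of 48 and 27 fragments, at chr6:31834850-31835319 and chr6:31834520-31834693, lay 1936 and 2562 bp from an H3K4me1 peak of 8 fragments, and the first covers the start printed above and an end of SNORD48. Of 24 microRNA host genes, 13 had an H3K27ac peak and 1 had a member, MIR29B2CHG, with 44 fragments, next to an H3K4me1 peak of 96 fragments. The deepest H3K27ac peak within 1 kb of an end of MIR29B2CHG, of 198 fragments, is not a member. The shares of listed genes with H3K27ac that had a member were 3.85% and 7.69% in these lists.

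At transfer RNA gene ends the share without H3K4me1 was 30.8% over all depths (32 of 104, 22.1 to 40.6%), near the 30.3% of all distal peaks, and differed from the rest among deeper peaks. Of 69 distal H3K27ac peaks with at least 13 fragments within 1 kb of a transfer RNA gene end, 16 had no H3K4me1 (23.2%, 13.9 to 34.9%), against 4.99% of all 18352 distal peaks of that depth (4.68 to 5.32%). The deepest was at TRU-TCA1-1, the selenocysteine transfer RNA gene, chr19:45478469-45479262 with 69 fragments (53.7 to 87.3), a fold of 14.3 and a gap of 6130 bp. TRL-CAA1-1, a leucine transfer RNA gene on chromosome 6, had members of 53 and 43 fragments beside a peak of 47 fragments that did share H3K4me1. TRP-TGG3-1 (28 fragments), TRL-TAG3-1 (27) and TRG-TCC3-1 (23) followed. The other peaks of that depth carried both marks, up to 107 fragments near TRQ-CTG4-1 and 100 near TRD-GTC2-8.

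At small nuclear RNA genes the share was 34.2% over all depths (13 of 38, 19.6 to 51.4%), with the same difference among deeper peaks. Of 35 distal peaks with at least 13 fragments at their ends, 10 had no H3K4me1 (28.6%, 14.6 to 46.3%). RNVU1-19, a variant U1 gene, had 69 fragments at chr1:120850807-120851268 over a background of 1.23, and its fold of 31.3 and −log10 q of 90.3 were the highest of all members. LOC124904613 (58 fragments), RNU5B-1 (53), RNVU1-18 (48), the U6 gene RNU6-7 (35) and the U1 gene RNU1-1 (33) followed. The gap to H3K4me1 ran from 143 bp at RNU6-7 to 14573 bp at RNU1-1, and to 224225 bp at RNVU1-7, which had 15 fragments. At RNU6-7 and RNU5B-1 the member stood beside the gene, at 193 and 187 bp. A deeper peak near RNU6-7, of 144 fragments, shared an H3K4me1 peak of 223 fragments. The members at LOC124904147 (20 fragments) and RNU5A-1 (18) also had deeper neighbours at the same gene that shared H3K4me1, of 62 and 64 fragments.

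U1 variant genes and transfer RNA genes have near-identical copies, and how reads with several matches were placed is not given in the sources used here, so the depth at any single copy is uncertain. Other small nuclear RNA genes carried both marks at higher depth, among them LOC124904138 with 209 fragments and a fold of 57.3 and RNU6-1 with 108. Sequences of these short genes are not printed.

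The other classes lay closer to the 4.99%. At 13 or more fragments the share without H3K4me1 was 6.51% for long noncoding RNA ends (105 of 1614, 5.35 to 7.82%), 4.26% for pseudogenes, 14.1% for transcribed pseudogenes (26 of 184, 9.44 to 20.0%), 10.7% for microRNA genes (11 of 103, 5.45 to 18.3%) and 14.8% for small nucleolar RNA genes (4 of 27, 4.19 to 33.7%). WASH2P (82 fragments), LRP5L (65) and FLJ43315 (26) led the transcribed pseudogenes, SEC22B4P (58), ANKRD33BP1 (46) and LOC124904154 (38) the pseudogenes, MIR4505 (48), MIR4740 (43) and MIR1469 (35) the microRNA genes, and SNORD48 (48 and 27) and SNORD88B (16) the small nucleolar RNA genes. Depth at any pseudogene with near-identical copies is uncertain for the reason given above for U1 variant genes. Some regions carry more than 1 name: the WASH2P member is that of LOC124907875, the SEC22B4P member that of LOC124904613, and the SNORD48 members those of SNHG32. At immunoglobulin and T cell receptor segments the share without H3K4me1 at 13 or more fragments was 7.69% (1 of 13). Over all depths 34 of their 59 distal peaks were members (57.6%, 44.1 to 70.4%), with a median of 5.5 fragments and 13 at the highest, IGLV1-51. All distal peaks stood at 30.3% over all depths. Below 13 fragments the 59 peaks were not split by depth, so no share of matched depth is given. The remaining class of other noncoding genes had 3 members, of which RNA5S11, a 5S ribosomal RNA gene copy, had 28 fragments.

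Members also differed in where they lay on chromosomes. Inside protein-coding gene spans were 63.3% of members and 64.7% of distal peaks with H3K4me1, inside a noncoding span only 11.03% and 12.04%, and outside all genes 25.6% and 23.2%. Within 5 Mb of a chromosome end, however, lay 25.0% of members (24.3 to 25.7%) and 13.5% of distal peaks with H3K4me1 (13.1 to 13.9%). Read the other way, 44.7% of distal peaks near chromosome ends had no H3K4me1 (3496 of 7817), against 27.4% elsewhere. The difference held within depth groups, 77.6% against 56.9% at 4 to 7 fragments, 51.5% against 23.5% at 8 to 12 and 11.9% against 5.27% at 13 to 34. At 35 or more fragments it was 2.99% (2.08 to 4.15%) against 2.20% (1.80 to 2.65%), with overlapping intervals. The median gap to H3K4me1 was 7800.5 bp near chromosome ends and 7847 bp elsewhere, but 3170.5 and 1584 bp for members of 13 to 34 fragments.

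By chromosome, the share of distal peaks without H3K4me1 ran from 21.5% on chromosome X and 23.6% on chromosome 6 to 35.2% on chromosome 7, 35.3% on chromosome 11 and 36.7% on chromosome 19. A few members reached the assembled ends: chr12:10101-10307 had 60 fragments, chr1:10004-10467 had 43 and chr4:10014-10178 had 16. Such terminal sequence is shared between chromosomes, so these depths are uncertain too.

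**Figure D5:**
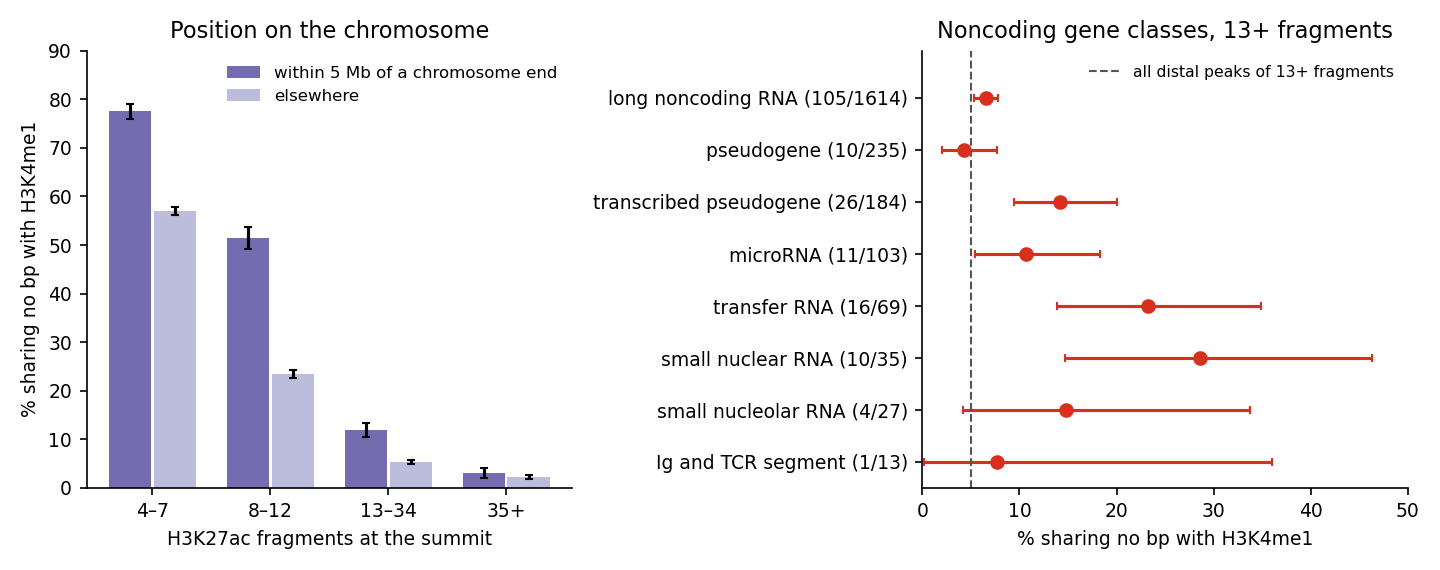
Left, percentage of distal H3K27ac peaks without H3K4me1 (y) within 5 Mb of a chromosome end and elsewhere, by pileup group (x). Right, the same percentage (x) among distal peaks of 13 or more fragments within 1 kb of an end of each noncoding gene class, with member and peak counts; the dashed line is the 4.99% of all distal peaks of that depth, and all bars are 95% exact Clopper-Pearson intervals.

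Some long genes held many members. In all, 4111 protein-coding genes held at least 1 and 86 held 10 or more. PTPRN2, a receptor-like phosphatase of secretory vesicles in neuroendocrine cells, held 49 members among 69 distal peaks (71.0%, 58.8 to 81.3%), or 4.67 per 100 kb against 0.703 per 100 kb over all protein-coding spans. ADARB2, a brain RNA-editing enzyme homologue, held 35 of 40 (87.5%, 73.2 to 95.8%). CAMTA1 held 34 of 63, MAD1L1, a spindle checkpoint gene, 30 of 51, SHANK2 29 of 55, KLHL29 24 of 31, CDH23 21 of 28, TRAPPC9 21 of 51, FSTL4 19 of 36, and KCNQ1 and SORCS2 19 each, of 26 and 24. Over all distal peaks inside protein-coding genes the share without H3K4me1 was 29.9%. The genes named here were picked for holding the most members, so high counts, shares and densities partly follow from the choice. Members in these genes were shallow, with medians of 5 to 8 fragments per gene and a highest value of 34, in PTPRN2. PTPRN2, ADARB2, MAD1L1, TRAPPC9 and KCNQ1 lie within 5 Mb of a chromosome end.

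Over gaps up to the distance customary for stitching super-enhancers, members were no more isolated than other distal peaks. In their stitched H3K27ac region 32.5% of members stood alone, against 33.1% of distal peaks with H3K4me1. At closer range members as a whole were more isolated. Another H3K27ac peak lay within 1 kb of 17.4% of members and of 30.9% of distal peaks with H3K4me1. The order was the same at 4 to 7 fragments (12.97% against 18.5%) and at 8 to 12 (21.8% against 27.1%). It was the other way in both deeper groups, with 44.4% against 34.6% and 82.0% against 42.3%. Joined only to one another over the stitching distance, the members formed 10164 groups. Of these groups, 7685 held 1 member and 130 held 5 or more. The largest held 14 members in MAD1L1, chr7:1933318-2003890, out of 16 distal H3K27ac peaks in that stretch, with a median of 10 fragments. The next held 13 in ZMIZ1, a transcriptional coactivator gene, chr10:79151742-79228849, out of 15, with a median of 9. A group of 9 members on chromosome 10, chr10:42971029-43000883, lay outside protein-coding genes, and another 9 lay in PACS2. In the MAD1L1 and ZMIZ1 stretches 2 distal peaks each shared H3K4me1. The stretches begin and end at members and were picked for holding the most, so such high shares partly follow from the choice. Over the whole genes, 30 of 51 distal peaks in MAD1L1 and 16 of 38 in ZMIZ1 were members.

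Super-enhancer-like regions, the 1326 top stitched H3K27ac regions above the bend of the ranking by fold times width, held 1488 members (10.65%) and 17.9% of distal peaks with H3K4me1. Within the 3 shallower depth groups the order turned: 6.41% against 3.92% at 4 to 7 fragments, 17.0% against 7.78% at 8 to 12 and 30.2% against 18.4% at 13 to 34, with intervals apart. At 35 or more fragments the shares were 51.8% (72 of 139, 43.2 to 60.4%) and 47.0% (45.75 to 48.3%), with overlapping intervals. Of the 1326 regions, 637 held at least 1 member. How many held a distal peak with H3K4me1 was not counted, so this number has no background and nothing is read from it.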

How the data were processed

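A pair of narrowPeak lists was used, 1 per mark. Per the submitters' processing notes, reads were processed with BWA and MACS2 on hg38; versions, duplicate handling and fragment totals are not given in the sources used here. The deposited columns hold, for each peak called by the authors in 1 library, a fold enrichment ratio, −log10 p and −log10 q values and a display score, which was not used. The pileup was recovered as the whole number k for which (k + 1)/(λ + 1) equals the fold and the Poisson tail beyond k at background λ equals p, within 0.001 or a relative 0.0001 of −log10 p; this held for 99.94% of H3K27ac and 99.98% of H3K4me1 peaks, and for every member. For 95 of the members 2 values met these limits, and the closer was taken. Recovery and gap search were tested on simulated data.

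No H3K27ac peaks overlapped or touched, so merging changed none. Of the RefSeq table, 679 genes listed with coordinates of scaffolds were left out. Members, lists, depth groups and named genes (the 20 deepest members, the 12 deepest at noncoding ends, the 3 deepest per class, the 5 farthest from and nearest to H3K4me1, the 10 genes with most members, listed genes) were chosen with earlier results of these data known. With 1 library per mark there is no test; Clopper-Pearson and Poisson intervals (95%) cover counting error only, and peaks of 1 library are not replicates. Python 3.11.15, numpy 2.4.6, scipy 1.17.1, pandas 2.3.3 and matplotlib 3.10.9 were used. Alternatives of threshold, overlap and window are given at the end. A few marker genes are not reported here.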

Additional observations from a re-analysis of the deposited data

How the results depend on the processing

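No paired analysis was possible because each mark has 1 library. Of 83 alternative values, 53 stayed within the limits set for the result and 30 moved. These limits differed between results, so staying within them does not mean little change. With H3K4me1 within 2 kb counted as shared, 11325 members beside the main 13974 stayed within them. The share in coding spans under that setting, 62.31% beside 63.33%, moved. With H3K27ac peaks of −log10 q of at least 5 there were 2716 members, 10.13% of distal peaks, with a median of 10 fragments, 11.45% near a noncoding end and 57.95% in coding spans. With at least 10 fragments there were 2010, or 8.403%, with medians of 12 fragments and 3484.5 bp, 12.64% near a noncoding end and 69.55% in coding spans. Stricter H3K4me1 peaks (−log10 q of at least 5) gave 33.43% and a gap of 8523 bp. Counting H3K4me1 as shared only when it covers 50% of the peak gave 35.28%, 6276.5 bp, 8.734% near a noncoding end and 622 members of 35 or more fragments. Members more than 500 bp from H3K4me1 made up 27.85%, with a gap of 8798 bp, and 84 of them had 35 or more fragments. For 2 kb the values were 24.6%, 10161 bp, 62.31% in coding spans and only 17 deep members, so the deep set rests on where the border to H3K4me1 is drawn. Without chromosome ends the share was 27.41%. A gene-end window of 1 kb gave 220 deep members. The noncoding-end share was 14.01% for a 2.5 kb window, 2.927% for 250 bp, 2.393% for long noncoding RNA starts alone and 5.56% without pseudogenes. The counts of deep members, other windows at transfer RNA genes and the value with scaffold genes kept (13946 members) were added after seeing the data. Shallow peaks limit precision: 4 fragments is the lowest pileup listed.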
